A study of Mus musculus with 12 samples.

Results

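The chromatin protein BRD3 was mapped by ChIP-seq, which sequences the DNA that an antibody pulls down with its target, in Raw264.7, a transformed mouse macrophage line that can form osteoclasts and that the labels call a monocyte-derived line of bone marrow origin. The cells had 4 h of I-BET at 500 nM or were untreated, both without RANKL, the cytokine that drives osteoclast formation. The account below rests on the 2232 regions listed under I-BET and the 3668 listed in untreated cells, 5900 of the 16188 regions in the 8 lists of the series. The other lists are for BRD3 with RANKL (50 ng/ml) and with RANKL+Ibet (RANKL+I-BET below), and for BRD2 under the same 4 conditions, and they are used where they show what else was called at these places. Each condition has 1 list per antibody, so no spread between replicates is known, and a difference between treatments cannot be told apart from a difference between libraries. A region was called shared when it overlapped a region of the other list by at least 1 bp, lost when it stood in the untreated list alone, and I-BET-side when it stood in the I-BET list alone. Coordinates are those of mm10 (GRCm38).

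BRD3 belongs to the BET family, as does BRD2. Paired bromodomains in these proteins bind acetylated lysines, mainly on histone tails at active promoters and enhancers, and the inhibitor I-BET fills the pocket that would take the acetyl-lysine. BET proteins are known for helping RNA polymerase II leave promoters, and wide or clustered stretches of them mark genes that define a cell type.

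The untreated list held a larger share of the macrophage markers than of all genes, and neither list held a marker listed for other lineages. Of 10 macrophage markers, 1 (Spi1) had a BRD3 region under I-BET and 5 (Spi1, Cebpa, Cx3cr1, Cd68 and Csf1r) had one in untreated cells. None of 8 T cell, 6 B cell, 7 fibroblast and osteoblast or 6 erythroid and megakaryocyte markers had one in either list. Over all protein-coding genes 9.73% had a region under I-BET and 14% in untreated cells. The 1 of 10 macrophage markers under I-BET was thus near the share over all genes. At these shares few markers of the other lineages would have a region in any case. The regions covered 1597.72 kb under I-BET and 3562.81 kb in untreated cells. Read depth is unknown because the lists carry no read counts. Intervals below are exact (Clopper-Pearson) 95% binomial intervals that cover counting error only.

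Promoter sequences that were more frequent in kept than in lost regions are shown first, because the results return to them. Nuclear respiratory factor 1 (NRF1) is a transcription factor that binds a GC-rich palindrome in promoters of many mitochondrial and housekeeping genes. The letters searched for it, GCGCA and GCGC with any 1 base between them, on either strand, are in capitals in the stretches below, with the bases on each side in lower case, 5′ to 3′ on the strand of the gene. All come from RefSeq promoters of assembly GRCm38.p6 whose gene start lay inside a BRD3 region. The first 8 are from promoters whose region was shared. They belong to Smarca4 (the ATPase of a chromatin remodelling complex), Sdhd (a subunit of succinate dehydrogenase), Psmc5 (an ATPase of the proteasome), Odc1 (the first enzyme of polyamine synthesis), Ran (the GTPase of nuclear transport), Eif5a (a translation factor), Samhd1 (a nucleotide hydrolase that restricts viruses) and Cct3 (a chaperonin subunit).
Smarca4 (chr9:21615956-21616005, plus strand): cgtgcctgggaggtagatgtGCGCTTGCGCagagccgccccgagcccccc
Sdhd (chr9:50603899-50603948, minus strand): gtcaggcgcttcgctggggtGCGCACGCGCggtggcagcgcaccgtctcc
Psmc5 (chr11:106256116-106256165, plus strand): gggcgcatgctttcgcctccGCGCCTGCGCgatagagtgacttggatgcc
Odc1 (chr12:17544672-17544721, plus strand): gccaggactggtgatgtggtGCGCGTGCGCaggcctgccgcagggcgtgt
Ran (chr5:129019931-129019980, plus strand): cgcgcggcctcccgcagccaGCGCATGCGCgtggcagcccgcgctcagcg
Eif5a (chr11:69921116-69921165, minus strand): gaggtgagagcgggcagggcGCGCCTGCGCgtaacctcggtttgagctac
Samhd1 (chr2:157135256-157135305, minus strand): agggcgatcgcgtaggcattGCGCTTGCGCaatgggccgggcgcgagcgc
Cct3 (chr3:88296895-88296944, plus strand): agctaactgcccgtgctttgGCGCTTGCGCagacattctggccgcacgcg

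The next pair comes from I-BET-side promoters, of the interferon receptor gene Ifnar1 and of Eif4e, which encodes the factor that binds the mRNA cap.
Ifnar1 (chr16:91484982-91485031, plus strand): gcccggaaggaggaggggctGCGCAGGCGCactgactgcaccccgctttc
Eif4e (chr3:138527148-138527197, plus strand): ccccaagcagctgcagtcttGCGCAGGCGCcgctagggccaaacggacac

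The last pair is from promoters that held the letters and whose regions were lost. Rps15 encodes a protein of the small ribosomal subunit and Hspd1 the mitochondrial chaperonin.
Rps15 (chr10:80292418-80292467, plus strand): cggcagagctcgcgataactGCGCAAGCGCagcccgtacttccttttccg
Hspd1 (chr1:55088273-55088322, minus strand): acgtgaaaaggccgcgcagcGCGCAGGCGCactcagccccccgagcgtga

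Against these stand 3 promoters of macrophage genes in lost regions, printed whole, from 250 bases before to 50 after the start. None held the NRF1 letters, and neither did 637 of the 1297 promoters of shared regions. Capitals mark, on either strand, the letters of the CCAAT box, the TATA box and the SP factors, which are spelled out with the shares of promoters that hold them. The genes are Cx3cr1 (a chemokine receptor), Lyz1 (a lysozyme) and Cebpa (a transcription factor of myeloid cells).
Cx3cr1 (chr9:120068247-120068546, minus strand): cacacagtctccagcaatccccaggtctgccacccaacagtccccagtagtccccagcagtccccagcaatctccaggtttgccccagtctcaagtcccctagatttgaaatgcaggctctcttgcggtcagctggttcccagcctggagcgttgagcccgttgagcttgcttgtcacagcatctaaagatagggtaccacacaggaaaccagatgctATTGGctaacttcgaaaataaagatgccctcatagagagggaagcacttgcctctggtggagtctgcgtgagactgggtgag
Lyz1 (chr10:117292819-117293118, minus strand): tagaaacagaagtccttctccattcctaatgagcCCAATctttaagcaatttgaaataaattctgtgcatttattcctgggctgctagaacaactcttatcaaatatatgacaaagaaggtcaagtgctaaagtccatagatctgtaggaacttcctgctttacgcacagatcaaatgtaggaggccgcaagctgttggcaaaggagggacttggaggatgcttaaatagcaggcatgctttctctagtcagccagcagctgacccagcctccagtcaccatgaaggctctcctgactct
Cebpa (chr7:35119043-35119342, plus strand): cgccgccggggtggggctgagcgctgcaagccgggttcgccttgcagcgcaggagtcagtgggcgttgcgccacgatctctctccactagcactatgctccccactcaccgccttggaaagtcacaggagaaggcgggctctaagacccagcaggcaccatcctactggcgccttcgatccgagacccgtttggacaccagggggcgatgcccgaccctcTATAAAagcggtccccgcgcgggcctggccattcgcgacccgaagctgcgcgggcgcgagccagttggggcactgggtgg

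Under I-BET 1952 of the 3668 untreated regions had an overlapping region (53.2%, 51.6% to 54.8%), and 1716 were lost (46.8%, 45.2% to 48.4%). The comparison asks where BRD3 can still be called when the bromodomain pocket is occupied. Lost regions were the wider ones, with a median of 809.5 bp against 663 bp for shared regions in the same untreated list, and they added up to 1927.11 kb. Shared regions added up to 1413.47 kb under I-BET and 1635.7 kb in untreated cells. Gene starts held 63.8% of the shared regions and 43.4% of the lost ones.

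I-BET-side regions were few and narrow, and nearly all were also called in another BRD3 list. They numbered 280 of 2232 (12.5%, 11.2% to 14.0%), with a median width of 596.5 bp and a summed width of 184.249 kb. Of the 280, 240 overlapped a region of the RANKL+I-BET list and 217 a region of the RANKL list, and 12 overlapped neither. The widest was 2009 bp, at the start of Apba3, which encodes an adaptor protein. Next came regions at Sufu (1690 bp), an inhibitor of Hedgehog signalling, in the body of Stn1 (1673 bp), a telomere maintenance gene, in the body of Kdm6b (1557 bp), a histone demethylase gene, and at Atp5j (1550 bp), a subunit of the mitochondrial ATP synthase. Of the 10 widest, all 10 overlapped a RANKL+I-BET region. The share of the I-BET list without an untreated region was 45.6% when the untreated list was reduced to its 2232 regions of highest score. Such a cut of the untreated list alone can only raise this share.

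Wide regions and regions away from genes were lost most often. Of untreated regions of 2000 bp and over, 216 of 281 (76.9%, 71.5% to 81.7%) had no I-BET region. The share was 32.0% (29.2% to 34.8%) of the 1088 regions of 500 to 699 bp, the class with the lowest loss, and 54.5% (50.7% to 58.2%) of the 703 regions under 500 bp. By place, 745 of 1991 regions centred within 1 kb of a gene start were lost (37.4%), 413 of 709 in gene bodies (58.3%) and 367 of 527 between genes (69.6%). A wider class, called gene ends, pools the 1991 at starts with 26 at far ends and 415 at ends without a listed strand. Width and place went together: among regions of 2000 bp and over, 94 of 103 between genes were lost (91.3%, 84.1% to 95.9%), 80 of 95 in gene bodies (84.2%, 75.3% to 90.9%) and 42 of 83 at gene ends (50.6%, 39.4% to 61.8%). The score of a region, which is the authors' own value, did not order the losses in this way. In 4 classes of nearly equal size, from the lowest to the highest score, 50.1%, 46.6%, 43.2% and 47.3% were lost.

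**Figure D1:**
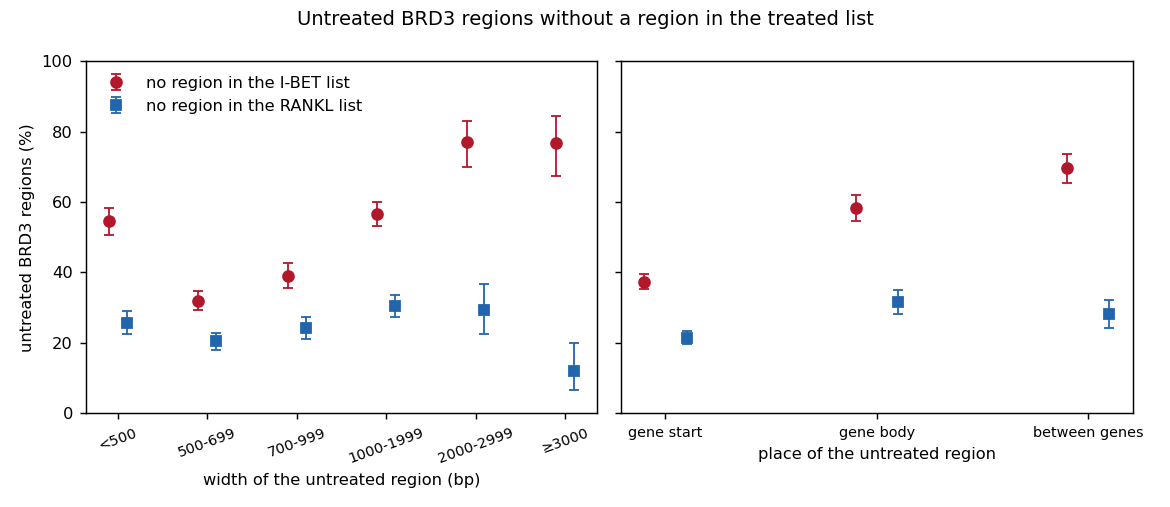
Share of untreated BRD3 regions (percent, vertical axis) with no region in the I-BET list (circles) or in the RANKL list (squares), by width of the untreated region (left) and by place (right); bars are exact 95% binomial intervals. The I-BET share was lowest at 500 to 699 bp (32.0%) and was 76.6% at 3000 bp and over, where the RANKL share was 12.1%. The RANKL list was longer, with 3840 regions against 2232 under I-BET.

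The RANKL list, whose comparison shares the untreated list, held most of the wide regions. It was also the longer list, with 3840 regions over 3705.24 kb, against 2232 over 1597.72 kb under I-BET. The RANKL+I-BET list had 2842 regions over 1819.3 kb. A longer list overlaps more regions by its length alone, and its part in these shares was not tested. Regions of 3000 bp and over had no I-BET region in 82 of 107 cases (76.6%, 67.5% to 84.3%) and no RANKL region in 13 of 107 (12.1%, 6.63% to 19.9%). Between genes, 28.1% of untreated regions had no RANKL region, and at gene starts 21.4%. Over all widths, 493 of the 1716 lost regions (28.7%) overlapped a RANKL+I-BET region and 967 (56.4%) a RANKL region, and 662 (38.6%) overlapped neither. Of the 1952 shared regions, 1862 (95.4%) overlapped a RANKL+I-BET region and 1799 (92.2%) a RANKL region.

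The widest lost region measured 10614 bp (chr2:45107905-45118518) and ran from the body of Zeb2, a transcription factor gene used by macrophages and dendritic cells, past its higher-coordinate end and over the non-coding gene Zeb2os. Pid1, an insulin signalling adaptor, had a region of 7997 bp in its body, and Apobec1, an RNA-editing cytidine deaminase, one of 7078 bp. A region of 6911 bp lay at Tnrc18 and one of 6047 bp at Ahnak, which encodes a giant scaffold protein. Neat1, the RNA that builds nuclear paraspeckles, was overlapped by a region of 6435 bp. The others among the 10 widest were nearest to Dner (5879 bp), Dppa3 (5874 bp), Lpp (5795 bp), which encodes a focal adhesion protein, and Spred1 (5493 bp), a brake on RAS signalling. All 10 overlapped a RANKL region and none overlapped a RANKL+I-BET region, and 7 overlapped a BRD2 region under I-BET and 4 one in untreated cells.

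That pattern held for the wide lost regions as a class. Of the 216 lost regions of 2000 bp and over, 13 (6.02%, 3.24% to 10.1%) overlapped a RANKL+I-BET region and 155 (71.8%, 65.3% to 77.7%) a RANKL region. With BRD2, 79 (36.6%, 30.1% to 43.4%) overlapped an I-BET region and 46 (21.3%) an untreated region, and 24 were in both BRD2 lists. The BRD2 lists held 1067 regions under I-BET and 578 in untreated cells, so the I-BET list was longer overall. Of the 65 shared regions of 2000 bp and over, 64 overlapped a RANKL+I-BET region, 62 a RANKL region, 20 a BRD2 region under I-BET and 18 one in untreated cells.

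**Figure D2:**
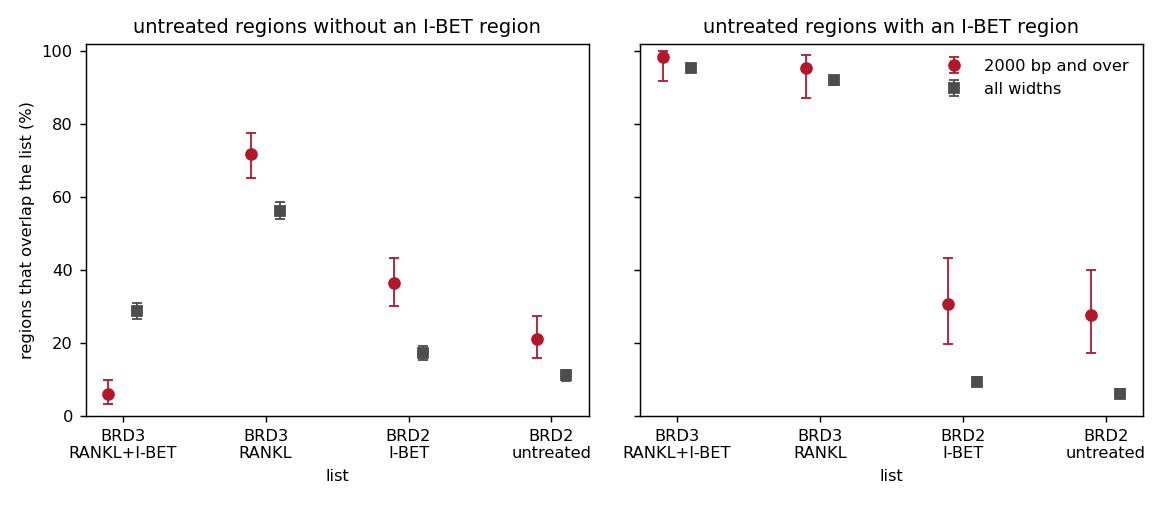
Percent of untreated BRD3 regions (vertical axis) that overlap each of 4 other lists (horizontal axis), for lost regions (left) and shared regions (right); circles are regions of 2000 bp and over, squares all widths, bars exact 95% binomial intervals. Wide lost regions were in the RANKL list (71.8%) and seldom in the RANKL+I-BET list (6.02%), while shared regions were in both.

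Where untreated regions crowded together, more of them were lost. Regions with a neighbour within 12.5 kb were joined into groups. Of 3259 single regions 45.3% (43.6% to 47.0%) were lost, of 324 in pairs 54.9% (49.3% to 60.4%), and of 85 in groups of 3 or more 71.8% (61.0% to 81.0%). Among the 25 groups of 3 or more, all members were lost in 13, none in 4 and some in 8. The group with the most sequence covered in untreated cells was the histone gene group from H4c8 to H2bc6 on chromosome 13, with 1.778 kb covered under I-BET and 15.31 kb in untreated cells. Groups near Lpp (15.223 kb in untreated cells), Tmco5 (12.935 kb), Hmga2 and Msrb3 (10.036 kb), Ctsd, the gene of cathepsin D (7.254 kb), and Rnaseh2a, Junb and Hook2 (7.095 kb) had no I-BET region. Among the 4 groups without a loss, the one at Spen and Fblim1 had 2.399 kb under I-BET and 3.747 kb in untreated cells, and the one at Pcyt2, Sirt7 and Mafg had 2.527 kb under I-BET and 2.589 kb in untreated cells.

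Shared regions had nearly the same median width in both lists, and the wide ones were narrower under I-BET. At the 1946 places where 1 region of each list overlapped, the median width was 646.5 bp under I-BET and 663 bp in untreated cells, and 981 were narrower under I-BET and 959 wider. The median log2 ratio of widths, I-BET over untreated, was 0.20 for untreated regions under 500 bp, 0.11 at 500 to 699 bp, -0.15 at 700 to 999 bp, -0.62 at 1000 to 1999 bp, -1.11 at 2000 to 2999 bp and -1.81 at 3000 bp and over. All 23 pairs of the last class were narrower under I-BET. Classes set by the width in untreated cells favour a narrower partner in any other list. The RANKL pairs, in the same classes, had medians of 0.16, 0.08, -0.08, -0.22, -0.12 and -0.01. At 3000 bp and over, 43 RANKL pairs were narrower and 41 wider. At the 60 places of 2000 bp and over with a pair in both comparisons, the median width was 1103 bp under I-BET and 2153.5 bp with RANKL, and 2546.5 bp in untreated cells.

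**Figure D3:**
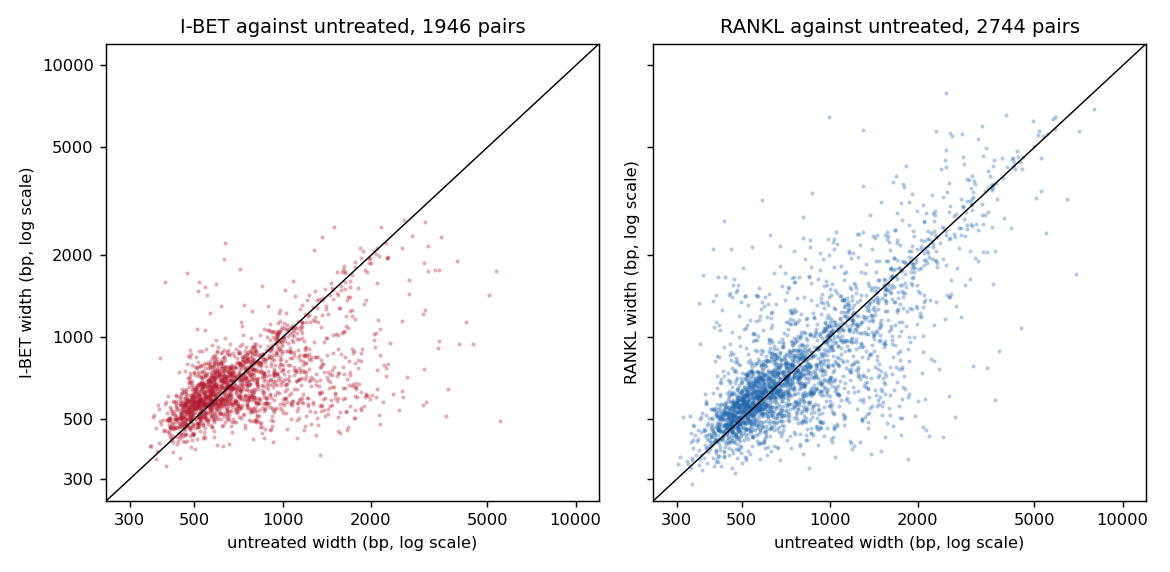
Width of each paired BRD3 region under I-BET (left, 1946 pairs) and with RANKL (right, 2744 pairs) against its width in untreated cells (bp, log scales); the line marks equal width. Under I-BET no paired region was wider than 2701 bp, and 59 of 63 pairs of 2000 bp and over lie below the line.

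Large differences were found at genes of the cytoskeleton and cell adhesion and at Spi1. Lcp1, which encodes the actin-bundling L-plastin, had 1755 bp under I-BET and 5356 bp in untreated cells, and 5490 bp with RANKL. Actb (cytoplasmic actin) had 944 bp and 4479 bp in the same order, Itga4 (integrin alpha 4) 514 bp and 3604 bp, and Cyth4 (an exchange factor for ARF GTPases) 1133 bp and 4219 bp. Spi1, the gene of the myeloid factor PU.1, kept 948 bp over its lower-coordinate end under I-BET (chr2:91082242-91083189) of 4010 bp in untreated cells (chr2:91081221-91085230), and had 6587 bp with RANKL and no region with RANKL+I-BET. A second untreated region at Spi1, of 2075 bp inside the gene, was lost. Zfp710, Tgif1, Tmem44 and Chd2 were also among the 10 pairs with the largest loss of width, with differences (I-BET minus untreated) between -3613 bp at Zfp710 and -2487 bp at Chd2. Tgif1 and Tmem44 were also narrow with RANKL, at 586 bp and 782 bp.

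Few shared regions were wider under I-BET by much. Of 1946 pairs, 14 were at least 2 times as wide under I-BET and 144 were at 50% or less. The largest difference was at Pkd2l2, with 2219 bp under I-BET and 635 bp in untreated cells. Nr4a3, a nuclear receptor gene, had 1939 bp and 632 bp, Bahcc1 1719 bp and 473 bp, Higd1a, a mitochondrial protein gene, 1595 bp and 396 bp, and Maml3, a Notch coactivator gene, 1592 bp and 517 bp. With RANKL these 5 places measured 463 to 724 bp. The others of the 10 were Mad2l1, Ing1, Ddx10, Klf16 and 2700097O09Rik.

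What was left of a wide promoter region mostly sat over the gene start. Among pairs with a listed gene start inside the untreated region, the I-BET region held the start in 1032 of 1070 (96.4%), in 201 of the 223 of 1000 bp and over (90.1%, 85.4% to 93.7%) and in 24 of the 29 of 2000 bp and over. In those 29 the median shift of the edge was -507 bp upstream of the start and -542 bp downstream, negative values meaning that the I-BET edge lay further in. Itga4 was an exception: its I-BET region ended before the listed start.

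Measured against the shorter region, overlap was close to all or nothing. The smallest overlap of a shared pair was 333 bp, no pair overlapped by less than 50% of its shorter region, and no lost region had an I-BET region within 1 kb. When 50% of both regions had to overlap, 51.6% of untreated regions were unmatched, against 46.8%. For I-BET regions the share was 20.5%, against 12.5%. At 2 places 1 untreated region overlapped a pair of I-BET regions. One was at the neighbouring H2-DMa and Brd2, where I-BET regions of 1361 bp and 1113 bp stood against 1 untreated region of 3902 bp. At Msl1 and Apbb2, the reverse, 1 I-BET region spanned a pair of untreated regions.

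Counted by gene, losses outnumbered gains, an order that follows from the number of genes bound in each list. A protein-coding gene was called bound when a region reached within 1 kb of either of its ends. Under I-BET 2130 of 21887 genes were bound (9.73%) and in untreated cells 3065 (14%). Of the 3065, 1197 had no call under I-BET (39.1%), and of the 2130, 262 had none in untreated cells (12.3%). With the untreated list reduced to its 2232 regions of highest score, 1875 genes were bound in it, fewer than the 2130 under I-BET. The order then had to turn: 686 genes had an untreated call alone and 941 an I-BET call alone. Because the cut fixed this turn in advance, it does not show whether sites were lost or gained.

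Macrophage genes had a smaller share with an I-BET call than all bound genes. Of 15 macrophage identity genes bound in untreated cells, 13 had no I-BET call (86.7%, 59.5% to 98.3%, against 39.1% of all bound genes). In the top 50% of each list by score it was 80% of 10 (44.4% to 97.5%), an interval that holds the 62.9% of all bound genes in that setting. They include Lyz1, with an untreated region of 4474 bp, the scavenger receptor gene Msr1 (3109 bp), Csf1r, the receptor of M-CSF (3095 bp), Cx3cr1 (2287 bp), Cebpa (2116 bp), the adaptor gene Tyrobp (1533 bp) and Cd68 (1303 bp). Of the 13, 10 had a BRD3 call with RANKL, 1 (Cebpa) with RANKL+I-BET, 6 a BRD2 call under I-BET and 4 one in untreated cells. Over all 1716 lost regions, counted by region and not by gene, the shares in these 4 lists were 56.4%, 28.7%, 17.3% and 11.2%. For lost regions of 2000 bp and over they were 71.8%, 6.02%, 36.6% and 21.3%. At Msr1 and Csf1r the BRD2 region under I-BET measured 4027 bp and 3313 bp, where untreated cells had no BRD2 call. Lyz1 and Cebpa went the other way, with no BRD2 call under I-BET and BRD2 regions of 2066 bp and 859 bp in untreated cells. Spi1 and Fcer1g, an Fc receptor gene, were called in both BRD3 lists. Fcer1g had 604 bp under I-BET and 444 bp in untreated cells.

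Immediate-early genes, which respond within minutes to a stimulus, numbered 7 in untreated cells. Of these 6 had no I-BET call (85.7%, 42.1% to 99.6%, against 39.1% of all bound genes): the transcription factor genes Klf10 (2681 bp in untreated cells), Junb (2356 bp), Jun (1878 bp) and Klf4 (663 bp) and the phosphatase genes Dusp6 (1969 bp) and Dusp4 (1482 bp). Fosb was called in both lists and Jund under I-BET alone, at 633 bp. Junb was the only 1 of the 6 with a RANKL or a RANKL+I-BET call. Over all 1716 lost regions, counted by region, 56.4% overlapped a RANKL region and 28.7% a RANKL+I-BET region. With gene starts alone, in the top 50% by score and at equal length by score, 83.3% of 6 immediate-early genes had no I-BET call (35.9% to 99.6%). That interval holds the 37.7%, 62.9% and 36.6% of all bound genes there. With a 0 kb window it was 80% of 5 (28.4% to 99.5%, against 39.5%), and with 5 kb 77.8% of 9 (40.0% to 97.2%, against 37.7%). Of the inflammatory genes, all 3 bound in untreated cells, Nlrp3 (2126 bp) and the chemokine genes Ccl3 and Ccl4, which share a region of 1408 bp, had no I-BET call (29.2% to 100%), and Myd88 was called under I-BET alone. Nfkbia, the inhibitor of NF-κB (1824 bp), Map3k7, Tab2 and Tab3 had no I-BET call, 4 of 8 genes of that list (15.7% to 84.3%), while Rela, Tab1, Traf3 and Map3k14 were called in both. Osteoclast genes were little represented, with 5 bound in untreated cells and 4 of these without an I-BET call (Tyrobp, Trem2, Car2 and Atp6v1c1; 28.4% to 99.5%). The inflammatory, NF-κB and osteoclast intervals all hold 39.1%.

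Histone and ribosomal protein genes had larger shares without an I-BET call than the 39.1% of all bound genes, but not in every setting beyond counting error. Of 49 replication-dependent histone genes bound in untreated cells, 31 had no I-BET call (63.3%, 48.3% to 76.6%). They share regions, 8 under I-BET and 28 in untreated cells, so the genes are not independent and the interval is too narrow. Of 34 cytosolic ribosomal protein genes 20 had none (58.8%, 40.7% to 75.4%), among them Rpl41 and Rps25. With the untreated list reduced to equal length by score the shares were 56.2% of 16 histone genes (29.9% to 80.2%) and 47.4% of 19 ribosomal protein genes (24.4% to 71.1%), and both intervals hold the 36.6% of all bound genes there. With gene starts alone, ribosomal protein genes stood at 53.8% (33.4% to 73.4%), against 37.7% of all bound genes. Rpl10a kept 670 bp under I-BET of 1735 bp in untreated cells, and Rpl4 532 bp of 1572 bp. Proteasome genes (7 of 11), cell cycle genes (7 of 11) and aminoacyl-tRNA synthetase genes (8 of 15) had shares of 53.3% to 63.6% with intervals that hold 39.1%. Ccnd1, the cyclin D1 gene, had an untreated region of 4563 bp and none under I-BET.

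Lower shares than the background were found for genes of RNA processing and of the mitochondrial ribosome. Of 33 splicing and hnRNP genes 8 had no I-BET call (24.2%, 11.1% to 42.3%), of 12 DEAD and DEAH box helicase genes 2 (16.7%, 2.09% to 48.4%), and of 23 mitochondrial ribosomal protein genes 6 (26.1%, 10.2% to 48.4%); all 3 intervals hold 39.1%. In the top 50% of each list by score the order was lost: 66.7% of splicing and hnRNP genes and 76.9% of mitochondrial ribosomal protein genes had no I-BET call, against 62.9% of all bound genes. Histone genes stood at 68.8% (41.3% to 89.0%) and ribosomal protein genes at 75% (47.6% to 92.7%) in that setting, with intervals that hold 62.9%. Hnrnpa1 kept 1592 bp under I-BET of 1637 bp in untreated cells, U2af2 had 1819 bp and 1766 bp, and Srsf1 2098 bp and 1278 bp. Hnrnpa2b1, with 1993 bp in untreated cells, was the widest of the 8. Chromatin modifier (15 of 37), zinc finger Zfp (26 of 66), translation factor (10 of 27), oxidative phosphorylation (14 of 38) and RNA polymerase, Mediator and Integrator genes (9 of 27) lay between 33.3% and 40.5%. Chaperone genes had 5 of 12, MYC network genes 9 of 19, lysosome and V-ATPase genes 5 of 14, Rab GTPase genes 3 of 11 and interferon genes 1 of 3 without an I-BET call, and the 1 antigen presentation gene, H2-DMa, was called in both lists.

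**Figure D4:**
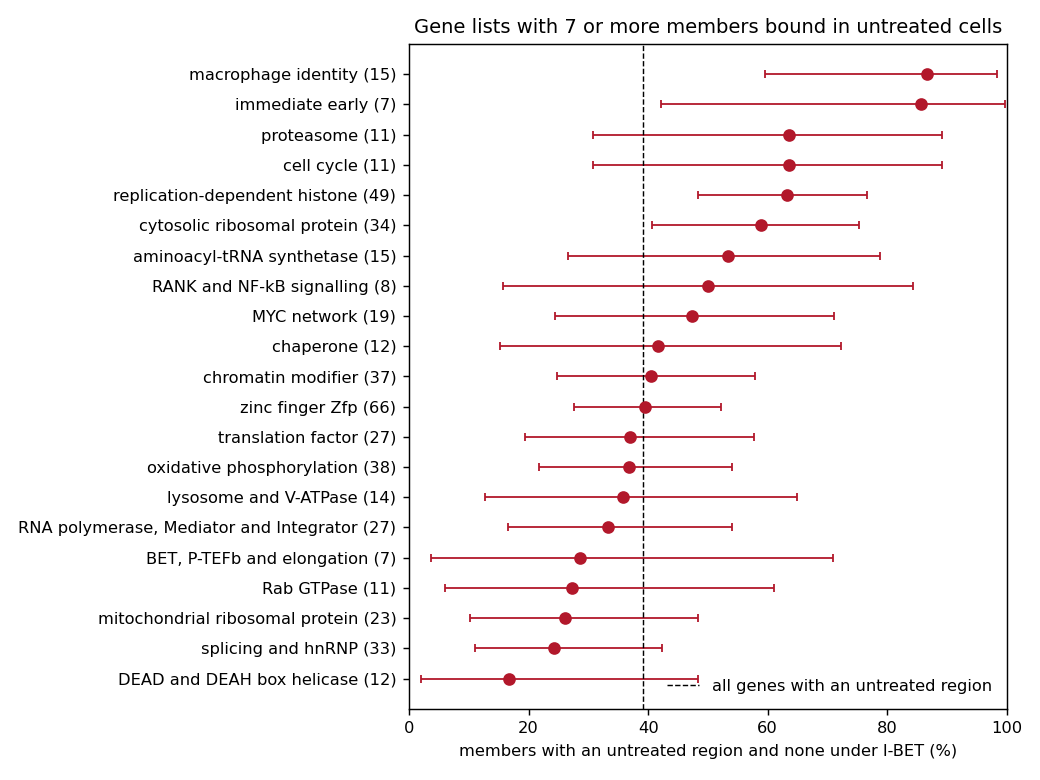
Percent of the members bound in untreated cells that had no BRD3 region under I-BET (horizontal axis), for each gene list with 7 or more such members (number in parentheses); bars are exact 95% binomial intervals and the dashed line is the share over all bound genes (39.1%). Macrophage identity genes stood at 86.7% and DEAD and DEAH box helicase genes at 16.7%.

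Of 7 BET and elongation genes bound in untreated cells, 5 were bound in both lists and 2 had no I-BET call (28.6%, 3.67% to 71.0%). That interval holds the 39.1% of all bound genes. Hexim1, which sequesters the elongation kinase P-TEFb, had 1403 bp under I-BET and 1697 bp in untreated cells, and Ccnt2, a cyclin of that kinase, 629 bp and 866 bp. Mllt1 and Rtf1 had no I-BET call and Nelfcd and Supt4a no untreated call. Brd3 itself had untreated regions of 1160 bp in its body and 1756 bp beyond its higher-coordinate end, and no I-BET region. Rbpj, which encodes the DNA-binding partner of Notch, had 1768 bp under I-BET and 3416 bp in untreated cells in its body, and a group of 3 untreated regions near the gene was lost. Malat1 had 1770 bp and 3323 bp at 1 end. Irf8, Cebpb, Myc, Nfatc1, Fos and Gapdh had no BRD3 region at or near the gene in either list.

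Non-coding genes were in the lists as well. Of 529 long non-coding RNA genes bound in untreated cells 265 had no I-BET call (50.1%, 45.7% to 54.4%), against 39.1% of bound protein-coding genes. The share was 68.2% (45.1% to 86.1%) for 15 of 22 miRNA genes and 66.7% (41.0% to 86.7%) for 12 of 18 snRNA genes. The intervals of these classes lie above 39.1%, but all hold the 46.8% counted over untreated regions. For tRNA genes, 14 of 33 (42.4%, 25.5% to 60.8%), and snoRNA genes, 3 of 5 (60%, 14.7% to 94.7%), the intervals hold both shares. A non-coding gene beside or inside another gene can share its region.

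Promoters that kept BRD3 under I-BET held the NRF1 letters shown above about 3 times as often as promoters that lost it. Each region with a protein-coding start was read once, from 250 bases before to 50 after the start. The letters were in 660 of 1297 promoters of shared regions (50.9%, 48.1% to 53.6%), in 122 of 771 of lost regions (15.8%, 13.3% to 18.6%) and in 72 of 178 of I-BET-side regions (40.4%, 33.2% to 48.0%). Over all 21263 promoters of protein-coding genes the share was 6.38%. Read the other way, 660 of 782 promoter regions with the letters were kept under I-BET (84.4%, 81.7% to 86.9%) and 637 of 1286 without them (49.5%, 46.8% to 52.3%).

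The gap was also there within classes of width and of base composition. Among untreated promoter regions of 1000 bp and over, 108 of 129 with the letters were kept (83.7%) and 176 of 415 without (42.4%); under 700 bp the counts were 372 of 456 (81.6%) and 289 of 563 (51.3%). Among promoters with a CpG ratio (observed over expected) of 0.75 and over, 556 of 645 with the letters were kept (86.2%) and 460 of 926 without (49.7%). Median GC content was 63.7% in promoters of shared regions and 64% in those of lost ones, and the median CpG ratio was 0.89 and 0.86. The other 13 letter groups searched showed no such gap. The SP letters GGGCGGGG were in 38.6% of promoters of shared regions and 39.0% of lost ones (23.6% of all promoters), the E-box CACGTG in 11.5% and 11.5% (7.84%), the ETS letters CCGGAAGT in 8.48% and 8.30% (5.15%), CCAAT in 32.9% and 36.1% (38.2%) and TATAAA in 5.17% and 7.39% (12.6%). PU.1 letters GAGGAAGT were in 2.00% and 2.33% (3.13%). The rest each stood in under 5% of both sets and in 0.673% to 6.99% of all promoters: TGACGTCA (CRE), TGANTCA (AP-1), TTGCNNCAA (C/EBP), AAGATGGCG (YY1), GGGA and TTCC with 2 bases between (NF-κB), GAAA and GAAA with 2 bases between (ISRE), and the palindrome of ZBTB33. The ETS and PU.1 letters overlap in GGAAGT.

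The lists with RANKL+I-BET and with RANKL come from other libraries, and they gave the same order. They are not a separate set of promoters: of the 1952 shared regions, 1862 overlapped a RANKL+I-BET region and 1799 a RANKL region. The NRF1 letters were also singled out after the shares of all letter groups were seen. Of 798 promoter regions with the letters in the RANKL list, 748 had a RANKL+I-BET region (93.7%, 91.8% to 95.3%), and of 1160 without them 820 (70.7%, 68.0% to 73.3%). The letters stood in 51.1% of the promoters in the BRD3 I-BET list and 37.8% of those in the untreated list. In BRD2 they stood in 14.0% (11.1% to 17.2%) under I-BET and 13.3% (9.78% to 17.6%) in untreated cells, and in 20.4% (13.2% to 29.2%) with RANKL+I-BET and 13.7% (11.5% to 16.2%) with RANKL.

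**Figure D5:**
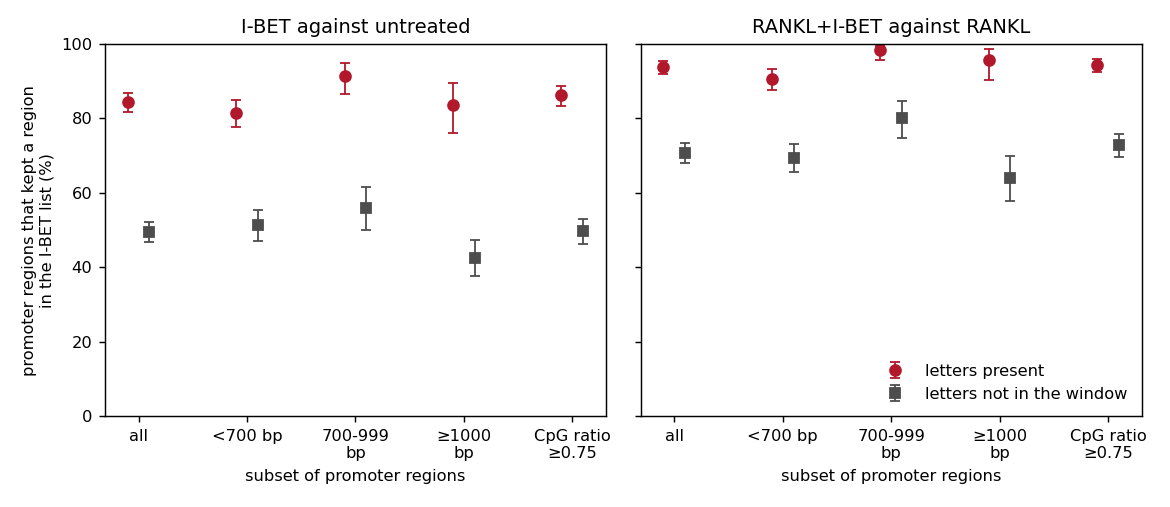
Percent of promoter regions that kept an overlapping region when I-BET was present (vertical axis), for promoters with the NRF1 letters (circles) and without them in the window (squares), by subset; left, I-BET against untreated, right, RANKL+I-BET against RANKL; bars are exact 95% binomial intervals. In every subset shown the share was higher with the letters, for all promoters 84.4% against 49.5% on the left and 93.7% against 70.7% on the right.

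In paired regions the letters lay close to the middle of what remained. Of 521 pairs with 1 match in the promoter, all 521 had it inside the I-BET region (99.3% to 100%), at a median of 33 bp from its middle, and at 49.5 bp from the middle of the untreated region. Matches were sought only near the start, which most I-BET regions held, so a high share was largely set by the window. Of single SP matches inside the untreated region, 323 of 337 were inside the I-BET region (95.8%, 93.1% to 97.7%). In the NRF1 pairs the start itself lay at a median of 57.5 bp from the I-BET middle. Where the untreated region was 1000 bp or wider (84 pairs), the median distance was 84.5 bp to the middle of the I-BET region and 324.25 bp to that of the untreated region. In 29 of the 84 the letters were within 50 bp of the I-BET middle, and in 3 within 50 bp of the untreated one. A narrower region brings its middle nearer to any site it holds, and for single SP matches the 2 distances were 188.5 bp and 289.5 bp over 92 pairs.

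The gene lists differed in how many promoters held the letters. Over all untreated promoter regions 37.8% held them, and 84.4% of those with the letters and 49.5% of those without were kept. The list counts differ in measure: a gene was bound when a region reached within 1 kb of either of its ends. It held the letters when any of its listed promoters did. Of 10 macrophage identity genes with an untreated region and a listed promoter, none held the letters, and 1 was bound under I-BET; the 5 immediate-early genes held none either, and 1 was bound. Of 45 such histone genes 1 held the letters. Of 18 oxidative phosphorylation genes with the letters 15 were bound under I-BET, and of 17 without them 6, the first close to the share over all promoter regions. All 10 mitochondrial ribosomal protein genes with the letters were bound under I-BET, and 7 of 12 without. Splicing and hnRNP genes were bound under I-BET in 8 of 10 cases with the letters and in 15 of 21 without. Most of that list's genes bound under I-BET thus had no match in a listed promoter. The gap was not in every list. RNA polymerase, Mediator and Integrator genes were bound under I-BET in 6 of 10 cases with the letters and 10 of 15 without. Chaperone genes were bound in 2 of 4 cases with the letters and 2 of 4 without. A match describes the sequence and does not show that the factor was bound.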

How the data were processed

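Per the labels' protocols, Raw264.7 cells were fixed in 1% formaldehyde for 15 min and single-end 50 bp reads were sequenced. The submitters' processing notes name FastQC, Bowtie2 2.3.4.1 and MACS2 2.1.1.20160309 with mm10/GRCm38; their settings are not given in these sources. The deposited lists give for each region its position, the names of the peaks joined into it and a score, which is the authors' own value and was used only to rank regions within a list. The 4 input libraries were not analysed here. Nearly every region joins 3 named peaks (99.96% under I-BET, 98.6% in untreated cells), and whether these come from replicates is not stated. Positions were counted from 1.

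Overlaps, widths and shares were computed with Python 3.11.15, pandas 2.3.3 and SciPy 1.17.1, and the overlap code was tested on simulated data. Genes and promoters came from RefSeq tables of GRCm38.p6; 17492 of 21887 protein-coding genes had a promoter with its strand. Of 1641 gene list symbols 1 had no match. The text names the 10 widest lost and I-BET-side regions, the 10 largest changes of width, up to 8 members of each gene list by width, and fixed genes; 2 of the genes this rule picks are not reported here. Groups of regions and the sequences printed were chosen after their values were seen. The members and lists were chosen with earlier results of these data known. With 1 list per condition no test was made.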

Additional observations from a re-analysis of the deposited data

Results flagged for a closer look

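The number of regions moved in opposite directions for the 2 antibodies, and this difference was not tested, since each list is from 1 library. For BRD3 the lists held 2232 regions under I-BET and 3668 in untreated cells, a log2 ratio of -0.72. For BRD2 they held 1067 under I-BET and 578 in untreated cells, a log2 ratio of 0.88. At the 3668 places of the untreated BRD3 list, 481 had a BRD2 region under I-BET and 313 had one in untreated cells.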

How the results depend on the processing

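No paired analysis was possible because each condition has 1 list per antibody. The share of untreated regions without an I-BET region was 46.8% and became 51.6% with an overlap of 50% of both regions, 68.6% in the top 50% of each list by score and 49.5% in lists of equal length by width. The share of I-BET regions without an untreated region, 12.5%, became 20.5%, 48.6% and 49.4% in those settings. It became 45.6% with the untreated list reduced to equal length by score and 22.2% for regions of 500 bp and over. A cut of the untreated list alone can only raise this share. The median log2 width ratio in the top 50% by score was -0.60 at 1000 bp and over (-0.69 with all pairs) and -1.72 at 2000 bp and over (-1.29). Genes with an I-BET call alone numbered 529 in the top 50% and 941 at equal length by score, against 262; genes with an untreated call alone numbered 686 at equal length, against 1197; and the share of untreated-bound genes without an I-BET call was 62.9% and 36.6%, against 39.1%. Alternatives added after seeing the data moved the kept share of promoter regions with the NRF1 letters to 81.6% under 700 bp, 89.7% with 12 letters (T before and A after the 10) and 93.7% for RANKL+I-BET against RANKL, and the share without the letters to 42.4% at 1000 bp and over, 61.2% with 12 letters and 70.7% for RANKL+I-BET against RANKL. The 12 letters were sought on the strand of the gene alone, unlike the 10. Promoters with only the opposite-strand form of the 12 therefore count among those without them. Lists cut by score keep different regions, and the cause of the other changes was not tested. Among the gene lists, splicing and hnRNP genes (24.2%) became 66.7% and mitochondrial ribosomal protein genes (26.1%) 76.9% in the top 50% by score. No value changed sign. Of the remaining main values under an alternative, 29 stayed within their interval or within 1.5 times. Without read counts, a region below the calling threshold cannot be told from one without binding.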
